A study of Mus musculus with 8 samples.

Results

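The genes described here are 42 mouse genes of the type I and type II interferon response. They were listed by symbol for their known function, with earlier results of these data known, and all 42 were found among the 37991 genes of the deposited table. Each of the 42 also passed the filter on low counts, which left 12466 genes for testing. They were grouped by role into 5 nucleic acid sensors, 4 transcription factors, 5 proteins of the oligoadenylate synthetase (OAS) family, 3 of the IFIT family, 4 of the ISG15 system, 7 GTPases, 2 chemokines and 12 other effectors.

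The RNA came from isolated adult cardiomyocytes of alpha-MHC MERCREMER MADM mouse hearts. There were 4 libraries of single colored cells, labelled as treated with 4F and as having gone through the cell cycle. The other 4 libraries were of double colored cells, labelled as treated with 4F but as not having gone through it. Both groups therefore shared the transgenes and the treatment: hearts received adenoviruses that encoded 4 cell cycle genes, and cells were taken 2 weeks later. All 8 libraries come from virus-injected hearts, so the comparison is between cells of different color and holds no level without virus. MADM (mosaic analysis with double markers) joins split fluorescent genes by recombination between chromosomes, and a dividing cell can leave daughters of a single color. The Cre recombinase here is the inducible form driven by the cardiomyocyte promoter alpha-MHC. Whether libraries of one color came from different animals is not in the labels, so a p-value here weighs a difference only against library spread that may be partly technical.

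Interferons are secreted proteins that cells release after sensing foreign or misplaced nucleic acid. Type I interferons act through a receptor whose kinases phosphorylate STAT2, which joins IRF9 in a complex that binds a DNA element called the interferon-stimulated response element (ISRE). Type II interferon, made mainly by T and NK cells, acts through its own receptor on genes that carry the gamma-activated site (GAS). The genes induced include sensors of viral RNA and DNA, the transcription factors of the pathway itself, antiviral enzymes, GTPases that attack intracellular membranes and viral particles, and chemokines that draw T cells.

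Both elements can be read in the promoters of these genes. RefSeq promoter windows on GRCm38.p6, of 250 bases before to 50 bases after the transcription start, were matched for 33 of the 42 genes. The ISRE was searched on both strands as GAAA, any 2 bases, then GAAA, and these letters were found in 18 of the 33, or 54.5%, against 3.99% of 27025 genes with a window. The GAS was searched as TTCNNNGAA, which reads the same on both strands, and was found in 9 of the 33, or 27.3%, against 9.55% of all genes with a window. The 2 patterns may overlap, and a match is a description of letters, not a shown binding site. The stretches below, each of 60 bases upstream of the start on the gene's own strand, show members of most roles, the GTPases most often, so that the matched letters can be compared. Capitals mark the matched letters, which are the ISRE letters on the printed strand or, where they begin with TTTC, on the other strand, and in Irf1 the GAS letters. The Igtp stretch also holds a GAS match, from −45 to −37 relative to the start, which is left in lower case.
Oas3, chr5:120777700-120777759, minus strand: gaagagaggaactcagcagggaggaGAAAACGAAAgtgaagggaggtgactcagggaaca
Oas1a, chr5:120907526-120907585, minus strand: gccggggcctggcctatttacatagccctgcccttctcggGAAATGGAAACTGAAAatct
Ifit1, chr19:34640779-34640838, plus strand: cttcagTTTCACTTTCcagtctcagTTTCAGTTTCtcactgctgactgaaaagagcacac
Isg15, chr4:156200850-156200909, minus strand: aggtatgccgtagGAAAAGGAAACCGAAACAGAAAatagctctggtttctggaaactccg
Gbp2, chr3:142620579-142620638, plus strand: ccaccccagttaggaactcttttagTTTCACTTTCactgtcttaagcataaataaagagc
Gbp7, chr3:142530258-142530317, plus strand: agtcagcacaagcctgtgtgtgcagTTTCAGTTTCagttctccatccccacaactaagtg
Igtp, chr11:58199496-58199555, plus strand: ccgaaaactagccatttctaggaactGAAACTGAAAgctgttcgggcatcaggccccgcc
Irgm1, chr11:48871421-48871480, minus strand: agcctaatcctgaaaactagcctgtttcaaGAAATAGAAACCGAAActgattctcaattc
Cxcl10, chr5:92349068-92349127, minus strand: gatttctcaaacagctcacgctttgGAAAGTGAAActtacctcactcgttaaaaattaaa
Irf1, chr11:53769898-53769957, plus strand: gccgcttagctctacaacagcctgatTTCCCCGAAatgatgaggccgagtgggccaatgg

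The median log2 fold change, single over double colored, was 0.63 for the 18 genes with the ISRE letters and 0.56 for the 15 without. For the GAS letters it was 0.60 both for the 9 genes with a match and for the 24 without. Neither comparison holds Zbp1, Mx1, Parp14, Dhx58, Usp18, Rtp4, Oas2, Mx2 and Ifi27l2a, which had no matched window.

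The libraries held 23820700 to 30082278 counted reads each, of which 77.5% to 85.9% in single colored and 84.2% to 88.3% in double colored libraries came from mitochondrial genes. Levels are given as CPM, the reads of a gene relative to the depth of its library, scaled by the trimmed mean of M values (TMM), a normalization that assumes most genes do not differ. Listed values run in the order of the replicate numbers 1 to 4. The cardiomyocyte label fitted the data in that 10 cardiomyocyte markers summed to 14100 to 25780 CPM in single colored libraries and 22470 to 29670 CPM in double colored libraries. Markers of other cell types were present too. T and NK cell markers summed to 24.3 to 51.4 CPM in single colored libraries, against 2.25 to 8.98 CPM in double colored libraries, and 8 of these 10 markers were called higher, meaning an adjusted p under 0.05 in the edgeR test used throughout. Macrophage markers summed to 259 to 448 CPM in single colored libraries, against 139 to 187 CPM in double colored libraries. Of these 13, 4 were called higher. Among all genes tested the share called higher was 2.32%. Fewer cells of a type and less RNA per cell cannot be told apart in such bulk libraries.

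Of the 42 interferon response genes, 5 were higher in single colored cells at a Benjamini-Hochberg adjusted p under 0.05 by edgeR's quasi-likelihood test: Zbp1, Oas3, Oasl2, Ifih1 and Herc6. That is 11.9% of the genes, while 2.32% of all 12466 genes tested were called higher. With edgeR, 0 of the 42 were called lower, against a background of 0.16%, and 0 were lower either at an unadjusted p under 0.05, where the background was 6.1%, or by DESeq2, where it was 0.81%. At an unadjusted p under 0.05, 25 of the 42 (59.5%) were higher, against a background of 9.02%. All 42 had a positive log2 fold change, as did 49.4% of all genes tested. Their median was 0.63, beside −0.01 for all genes tested. Scaling by library totals alone moved the median of all genes to 0.48 and that of the 42 to 1.16.

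Libraries with the same replicate number were also taken as pairs, a choice made from these same data. The labels do not say whether equal numbers mark one heart. Over all genes, deviations from the group means correlated at 0.126 to 0.257 within pairs and at up to 0.108 otherwise. In the 42 genes alone, pair 4 gave -0.131. With the number as a block, 23 of the 42 (54.8%) were called higher, against a background of 4.97%, and 0 were called lower, against 2.57%. DESeq2 called 11 of the 42 higher (26.2%), against 3.65% of all genes. The 5 genes called without the block were also called with it and by DESeq2. The count of 5 rested on single libraries. It was 1 without the double colored library 1, 2 or 4, against backgrounds of 1.55%, 1.44% and 1.03%. Without the single colored library 1 or 4 it was 2, against 1.06% and 1.7%. Without the single colored library 2 it was 12, against 2.16%.

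**Figure D1:**
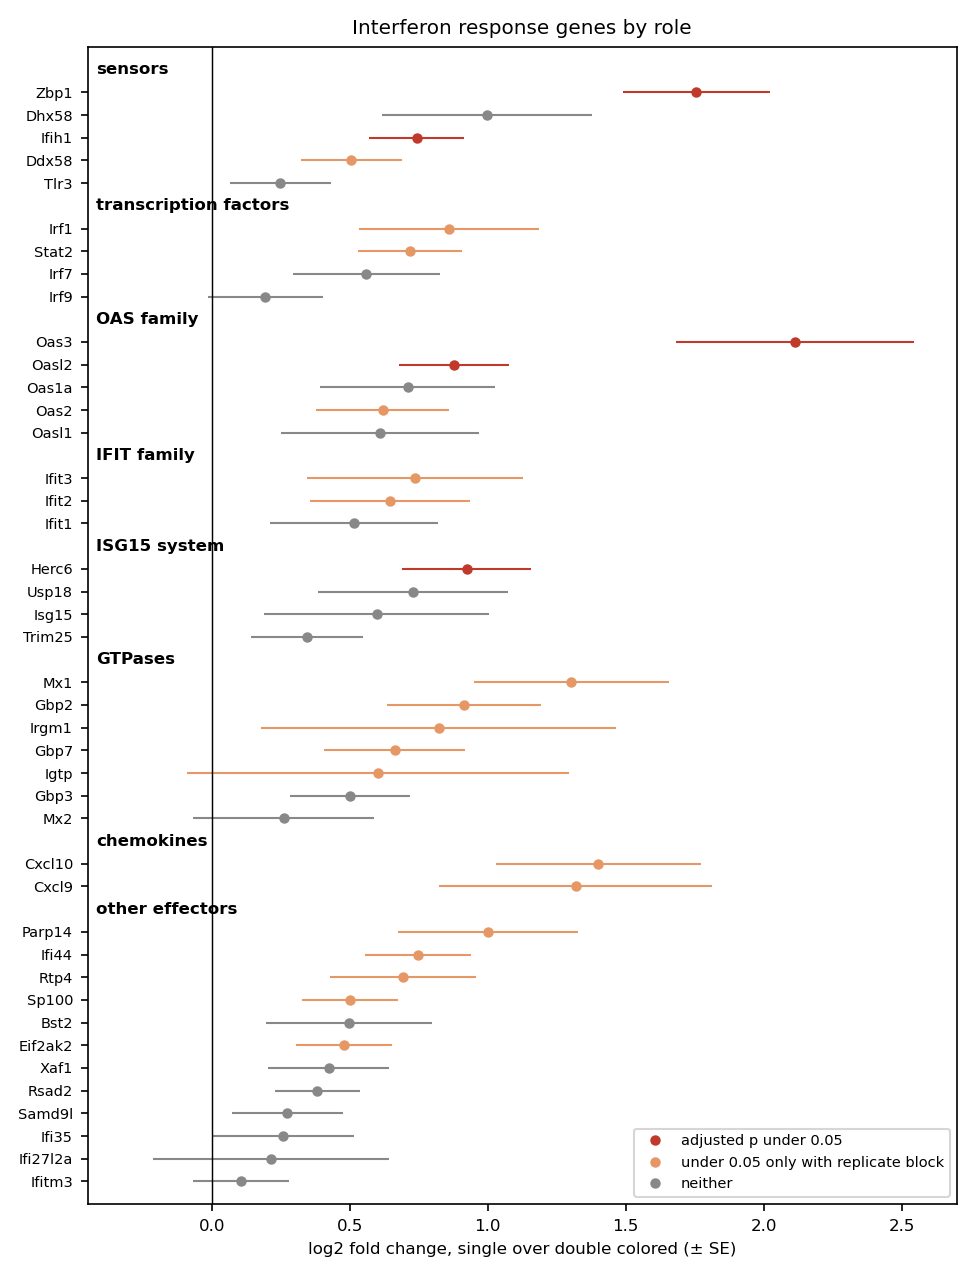
Log2 fold change of each of the 42 genes, single over double colored, with its standard error, grouped by role; color marks the genes called without the replicate block, those called only with it, and the rest. All 42 points lie right of 0, and Oas3 at 2.11 and Zbp1 at 1.76 lie farthest out.

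The role medians lay between 0.45 and 0.74, apart from that of the 2 chemokines at 1.36. The median log2 fold change was 0.74 for sensors (0.25 to 1.76), 0.64 for transcription factors (0.19 to 0.86) and 0.66 for GTPases (0.26 to 1.30). Among effectors it was 0.71 for the OAS family (0.61 to 2.11), 0.65 for the IFIT family (0.52 to 0.74), 0.66 for the ISG15 system (0.35 to 0.92), 1.36 for the chemokines (1.32 to 1.40) and 0.45 for the other effectors (0.11 to 1.00). These are descriptions of gene groups within the same 8 libraries, and no test was made between roles.

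Of the 5 sensors, 2 were called higher. Zbp1, a sensor of Z-form nucleic acid that can trigger necroptosis, had 15.2, 6.45, 9.28 and 11.2 CPM in single colored libraries, against 2.80, 2.04, 3.71 and 3.88 CPM in double colored libraries. Every single colored library lay above every double colored library. The means were 10.5 ± 3.65 CPM in single colored and 3.11 ± 0.855 CPM in double colored libraries (SD, n = 4 each). The fold was 3.38, with a log2 fold change of 1.76 ± 0.27 (SE) and an edgeR adjusted p of 0.00272, the smallest of the 42 genes. Leaving out any one library kept this call, with edgeR adjusted p-values of 0.00232 to 0.0150. Zbp1 (ENSMUSG00000027514) lies on the minus strand of chromosome 2 from 173032113 to 173044424 in mm9, the build of the deposited table.

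Ifih1 encodes MDA5, a cytosolic sensor of long double-stranded RNA. It had 27.2, 17.0, 25.2 and 20.1 CPM in single colored libraries, against 14.98, 10.4, 14.0 and 14.2 CPM in double colored libraries. The groups did not overlap, with the single colored library 2 closest to the double colored ones. Its log2 fold change was 0.74 ± 0.17 and the edgeR adjusted p 0.0297. That call was lost when any library except the single colored library 2 was left out, with edgeR adjusted p-values up to 0.112. Ifih1 (ENSMUSG00000026896) lies on the minus strand of chromosome 2 from 62433855 to 62484312 in mm9.

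The other sensors did not pass the test without the block. Ddx58, which encodes the RNA sensor RIG-I, had a log2 fold change of 0.51 ± 0.18, with an edgeR adjusted p of 0.185 without the block and 0.0246 with it. Dhx58, which encodes LGP2, a regulator of those sensors, had 1.00 ± 0.38 and an edgeR adjusted p of 0.213. Tlr3, the endosomal receptor for double-stranded RNA, had 0.25 ± 0.18 and an edgeR adjusted p of 0.578.

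Of the 4 transcription factors, 0 were called by edgeR without the block, 2 had an unadjusted p under 0.05, 1 was called by DESeq2 and 2 with the block. Stat2, which carries the type I signal to the nucleus, had 32.1, 21.3, 31.6 and 32.1 CPM in single colored libraries, against 14.0, 13.8, 22.0 and 21.4 CPM in double colored libraries. The single colored library 2 stood below the double colored libraries 3 and 4, and the other 3 single colored libraries stood above all double colored ones. Its log2 fold change was 0.72 ± 0.19, with an edgeR adjusted p of 0.0562 without the block and 0.00203 with it.

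Irf1, a factor induced strongly by type II interferon and shown above with the GAS letters, had a log2 fold change of 0.86 ± 0.33. Its edgeR adjusted p was 0.224 without the block and 0.00822 with it. Irf7, the factor that amplifies type I interferon production, had 0.56 ± 0.27 and an edgeR adjusted p of 0.337. Irf9, a DNA-binding partner of STAT2, had 0.19 ± 0.21 and an edgeR adjusted p of 0.735.

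The OAS enzymes make oligoadenylates that switch on an RNA-degrading nuclease, and 2 of 5 family members were called higher. Oas3 had 8.72, 1.81, 3.67 and 7.42 CPM in single colored libraries, against 0.920, 0.908, 1.94 and 1.21 CPM in double colored libraries. Libraries 1 and 4 of the single colored group stood far above the rest, and the single colored library 2 lay just below the double colored library 3. Its log2 fold change of 2.11 ± 0.43 was the largest of the 42, with an edgeR adjusted p of 0.0172. Oas3 had only 116 reads over the double colored libraries. The call was lost without the double colored library 1, 2 or 4, with edgeR adjusted p-values up to 0.0627. Oas3 (ENSMUSG00000032661) lies on the minus strand of chromosome 5 from 121203107 to 121227670 in mm9.

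Oasl2, an OAS-like protein with ubiquitin-like domains, had 52.7, 27.4, 40.9 and 44.5 CPM in single colored libraries, against 22.4, 15.98, 27.3 and 24.4 CPM in double colored libraries. The groups did not overlap, but the single colored library 2 and the double colored library 3 were nearly equal. The difference amounted to a log2 fold change of 0.88 ± 0.20, with an edgeR adjusted p of 0.0262. Without the single colored library 1 or 4, or the double colored library 1, 2 or 4, the call was lost, with edgeR adjusted p-values up to 0.0957. Oasl2 (ENSMUSG00000029561) lies on the plus strand of chromosome 5 from 115346943 to 115362243 in mm9.

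Oas2 had a log2 fold change of 0.62 ± 0.24, with an edgeR adjusted p of 0.218 without the block and 0.0438 with it. Oas1a had 0.71 ± 0.32 and Oasl1 0.61 ± 0.36, and neither was called in either fit. Oas1a has near-identical copies in the genome, and the column headers carry a mapping quality tag of 30, so reads shared with such copies may be missing from its count.

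The IFIT proteins bind foreign RNA and block its translation. Of the 3 genes, 0 were called by edgeR without the block or by DESeq2, 1 had an unadjusted p under 0.05, and 2 were called with the block. Ifit2 had a log2 fold change of 0.65 ± 0.29 and an edgeR adjusted p of 0.0220 with the block. Ifit3, which has a near-identical neighbor, had 0.74 ± 0.39 and an edgeR adjusted p of 0.00928 with the block. Ifit1 had 0.52 ± 0.30 and was not called in either fit.

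ISG15 is a ubiquitin-like protein that is attached to other proteins during an interferon response, and Herc6 is the main ligase for this step in mice. Herc6 was the only one of the 4 genes of this system that was called. It had 24.01, 12.97, 21.9 and 18.0 CPM in single colored libraries, against 8.16, 6.45, 13.9 and 12.02 CPM in double colored libraries. Only the single colored library 2 fell within the double colored range, below the double colored library 3. Herc6 had a log2 fold change of 0.92 ± 0.23, with an edgeR adjusted p of 0.0491. The call was lost without the single colored library 1, 3 or 4, or the double colored library 1, 2 or 4, with edgeR adjusted p-values up to 0.160.

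Herc6 (ENSMUSG00000029798) lies on the plus strand of chromosome 6 from 57530986 to 57615130 in mm9. Isg15, shown by library because the system is named for it and chosen after its values were seen, was low, with 12 to 97 reads per library. It had 1.68, 1.01, 2.52 and 1.27 CPM in single colored libraries, against 1.05, 0.545, 0.863 and 1.84 CPM in double colored libraries. The double colored library 4 lay above 3 of the 4 single colored libraries, and the log2 fold change was 0.60 ± 0.41 with an edgeR adjusted p of 0.538. Usp18, which removes ISG15 from proteins and dampens receptor signaling, had 0.73 ± 0.34. Trim25, a ligase that activates RIG-I, had 0.35 ± 0.20.

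**Figure D2:**
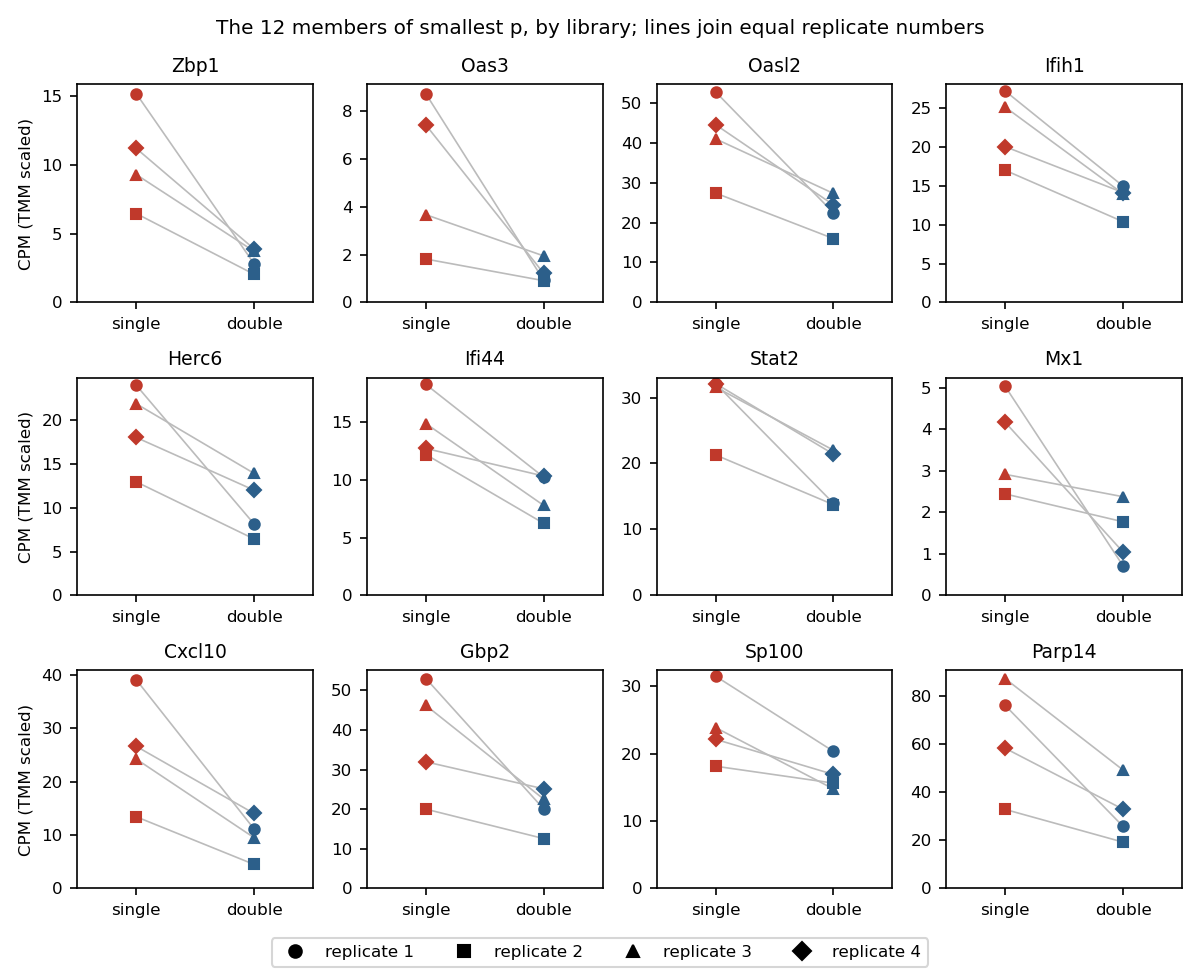
TMM scaled CPM of the 12 genes of smallest p in single colored (left, red) and double colored (right, blue) libraries, with one marker shape per replicate number and lines joining equal numbers. Every line falls to the right, and in Zbp1, Oasl2, Ifih1, Ifi44 and Mx1 all red points lie above all blue points.

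Of the 7 GTPases, 0 were called by edgeR without the block, 4 had an unadjusted p under 0.05, 2 were called by DESeq2 and 5 with the block. Mx1, a dynamin-like protein that traps viral nucleocapsids, had 5.03, 2.44, 2.91 and 4.16 CPM in single colored libraries, against 0.711, 1.77, 2.37 and 1.04 CPM in double colored libraries. The groups did not overlap, and only a narrow gap parted the single colored library 2 from the double colored library 3. Mx1 had a log2 fold change of 1.30 ± 0.35, with an edgeR adjusted p of 0.0656 without the block and 0.0288 with it. Its relative Mx2 had 0.26 ± 0.33 and an edgeR adjusted p of 0.786.

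Guanylate-binding proteins coat the membranes around intracellular pathogens. Gbp2 had 53.0, 20.01, 46.2 and 32.0 CPM in single colored libraries, against 20.04, 12.6, 22.5 and 25.1 CPM in double colored libraries. The single colored library 2 lay below 3 of the double colored libraries and the other single colored libraries lay above all of them. The log2 fold change was 0.91 ± 0.28, with an edgeR adjusted p of 0.122 without the block and 0.00124 with it. Gbp7 had 0.66 ± 0.25 and an edgeR adjusted p of 0.0133 with the block, and Gbp3 had 0.50 ± 0.22 and was not called in either fit.

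Igtp and Irgm1 are immunity-related GTPases that are induced above all by type II interferon. Their values per library are given for their spread, a choice made after the values were seen. Igtp had 159, 49.2, 275 and 135 CPM in single colored libraries, against 58.3, 31.5, 193 and 123.5 CPM in double colored libraries. Irgm1 had 54.1, 16.3, 73.4 and 47.5 CPM in single colored libraries, against 20.7, 7.17, 46.5 and 33.9 CPM in double colored libraries. In both genes the libraries numbered 3 were highest and those numbered 2 lowest within either color, so the colors overlapped widely while each single colored library lay above the double colored library of its own number. Igtp had a log2 fold change of 0.60 ± 0.69 and an edgeR adjusted p of 0.768, and 0.68 ± 0.17 with 0.0170 with the block. Irgm1 had 0.82 ± 0.64 and an edgeR adjusted p of 0.638, and 0.92 ± 0.15 with 0.000615 with the block.

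Cxcl9 and Cxcl10 are ligands of CXCR3, a receptor on activated T cells. Of these 2 chemokines, 0 were called by edgeR without the block, both had an unadjusted p under 0.05, 1 was called by DESeq2 and both with the block. Cxcl10 had 39.1, 13.4, 24.2 and 26.6 CPM in single colored libraries, against 11.1, 4.50, 9.50 and 14.0 CPM in double colored libraries. Only the single colored library 2 fell below a double colored one, number 4. Cxcl10 had a log2 fold change of 1.40 ± 0.37, with an edgeR adjusted p of 0.0970 without the block and 1.20e-05 with it.

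Cxcl9 had a log2 fold change of 1.32 ± 0.50, with an edgeR adjusted p of 0.267 without the block and 0.00271 with it. The gene Art3 on the opposite strand covers 8.75% of the exon bases of Cxcl10, and no source used here gives the strand option of the read counting, so in that stretch reads of the pair cannot be separated.

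Of the 12 other effectors, 0 were called by edgeR without the block, 6 had an unadjusted p under 0.05, 2 were called by DESeq2 and 5 with the block. Ifi44, an interferon-induced protein with antiviral activity, had 18.2, 12.2, 14.8 and 12.7 CPM in single colored libraries, against 10.2, 6.22, 7.77 and 10.3 CPM in double colored libraries. The groups did not overlap. The log2 fold change was 0.75 ± 0.19, with an edgeR adjusted p of 0.0503 without the block and 0.00465 with it.

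Parp14, an ADP-ribosyltransferase, had 75.9, 32.8, 87.1 and 58.2 CPM in single colored libraries, against 25.7, 19.2, 49.1 and 32.9 CPM in double colored libraries. The single colored library 2 fell below the double colored libraries 3 and 4, and the other single colored libraries lay above all double colored ones. For Parp14 the log2 fold change was 1.00 ± 0.33, with an edgeR adjusted p of 0.169 without the block and 0.000195 with it.

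Sp100, a component of nuclear bodies, had 31.5, 18.1, 23.9 and 22.1 CPM in single colored libraries, against 20.3, 15.6, 14.8 and 16.9 CPM in double colored libraries. The groups overlapped only through the single colored library 2 and the double colored library 1. The log2 fold change was 0.50 ± 0.17, with an edgeR adjusted p of 0.164 without the block and 0.0253 with it. Eif2ak2 encodes PKR, the kinase that halts translation on double-stranded RNA, and had 0.48 ± 0.17 with an edgeR adjusted p of 0.0246 with the block. Rtp4 had 0.69 ± 0.27 and an edgeR adjusted p of 0.0478 with the block.

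The remaining 7 effectors were not called in either fit. Their log2 fold changes were 0.38 for Rsad2, which makes an antiviral nucleotide, 0.42 for Xaf1, 0.50 for Bst2, which tethers budding virions, and 0.27 for Samd9l. They were 0.26 for Ifi35, 0.22 for Ifi27l2a and 0.11 for Ifitm3, a membrane protein that blocks viral entry. Counts of Ifi27l2a are uncertain, since 46.4% of its exon bases are shared with Ifi27l2b on the same strand, and 16.8% of the exon bases of Ifi35 lie under a gene on the opposite strand.

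Levels per kilobase of exon set the genes on one scale. In single colored libraries Igtp had the highest mean level, and in double colored libraries Ifitm3 had it. Igtp had 76.4 CPM per kilobase in single colored and 50.3 in double colored libraries. Ifitm3 had 66.9 CPM per kilobase in single colored and 62.1 in double colored libraries, and Cxcl9 27.7 in single colored and 11.1 in double colored libraries. The lowest mean level in single colored libraries was that of Dhx58, with 0.728 CPM per kilobase there and 0.365 in double colored libraries. The lowest in double colored libraries was that of Oas3, with 1.03 CPM per kilobase in single colored and 0.238 in double colored libraries.

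The levels also differed between replicate numbers. The summed level of the 42 was 1200, 544.3, 1184 and 922.7 CPM in single colored libraries, against 541.4, 372.0, 767.8 and 691.9 CPM in double colored libraries. The single colored library 2 lay below 2 of the double colored libraries. The double colored library 2 was the lowest of the 8 for 31 of the 42 genes, and the single colored library 1 was the highest for 29. Over all genes tested, the double colored library 2 was lowest for 10.5% and the single colored library 1 highest for 17.7%.

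Of the sum of squares of log2 CPM over the 8 libraries, the color group took a median of 33.9% in the 42 genes, against 14.1% in all genes tested. The replicate number took a median of 47.0% in the 42, against 43.8% in all. The color group took the larger share in 15 of the 42 and in 26.8% of all genes tested. The replicate number has more levels than the color group. It takes the larger share more often even where neither has an effect, so each share is read only against that of all genes. Zbp1 stood at one end, with 81.7% for the color group and 13.4% for the number. Ifitm3 stood at the other, with 3.31% for the color group and 84.3% for the number. Igtp had 11.3% for the color group and 83.0% for the number.

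**Figure D3:**
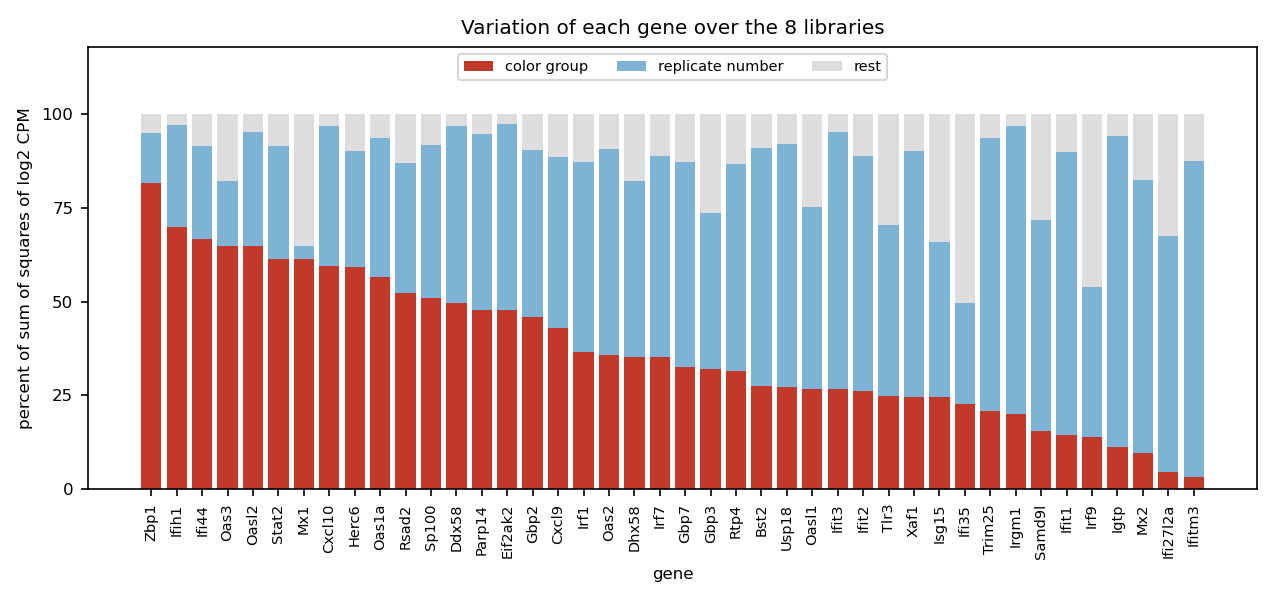
Share of each gene's sum of squares of log2 CPM over the 8 libraries that goes with the color group, the replicate number and the rest, with the 42 genes ordered by the first share. The color share runs from 81.7% in Zbp1 to 3.31% in Ifitm3. With more levels than the color group, the replicate number takes the larger share more often even where neither has an effect.

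Within each numbered pair, single minus double colored, the 42 genes lay mostly above 0. In pair 1 all 42 were positive, with a median log2 difference of 1.00 (0.16 to 3.15). In pair 2, 39 were positive with a median of 0.41, in pair 3, 35 with a median of 0.56, and in pair 4, 38 with a median of 0.46. Of all genes tested, 48.9% to 50.4% were positive in a pair. A higher level in single colored cells in all 4 pairs was seen for 31 of the 42 genes (73.8%) and for 14.1% of all genes tested. All single colored libraries lay above all double colored libraries for 5 of the 42 (11.9%): Zbp1, Oasl2, Ifih1, Ifi44 and Mx1. The background for that count was 5.37%. The count was 26 without the single colored library 2, against a background of 7.8%, and 10 without the double colored library 3, against 7.27%.

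**Figure D4:**
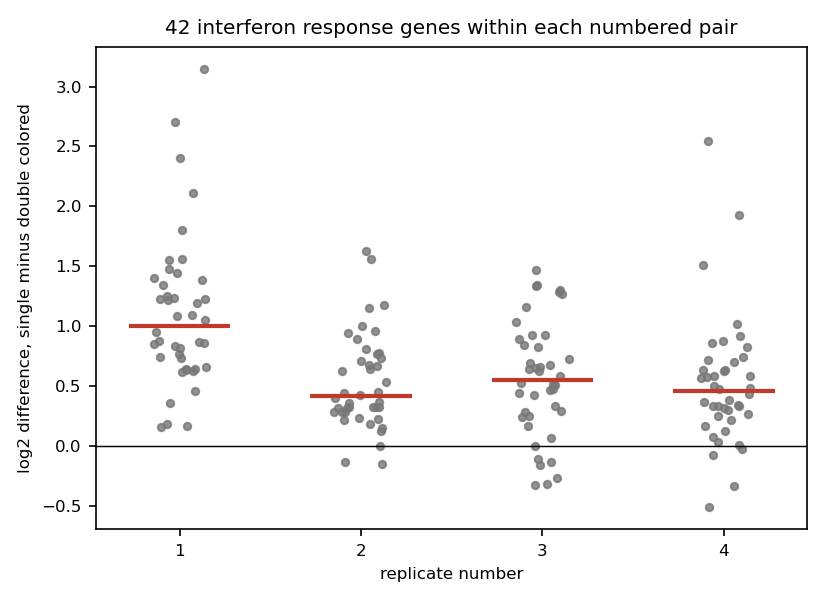
Log2 difference, single minus double colored, of the 42 genes within each pair of libraries with the same replicate number; each point is a gene and the red bar is the median. Pair 1 has the highest median, at 1.00, and no point below 0, while the other medians lie between 0.41 and 0.56.

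The ligands and receptors of the pathway were described by a list of 34 receptor and signaling genes. Of the 29 that were tested, 1 was called higher and 0 lower by edgeR, 6 were called higher with the block, and 21 had a positive log2 fold change, with a median of 0.41. Over all genes tested, the shares were 2.32% higher, 0.16% lower, 4.97% higher with the block and 49.4% positive, so a single call among these genes is near the background. The gene called was Jak2, a kinase of the type II receptor. It had 17.6, 13.8, 14.6 and 17.1 CPM in single colored libraries, against 9.46, 11.4, 10.6 and 9.44 CPM in double colored libraries. The groups did not overlap, and the log2 fold change was 0.63 ± 0.15 with an edgeR adjusted p of 0.0350. Leaving out one library gave edgeR adjusted p-values of 0.0408 to 0.135, and the call stood only without the single colored library 2 or 3.

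Next by p were Irf5, with a log2 fold change of 1.47 ± 0.39 and an edgeR adjusted p of 0.0595, Irf2, with 0.67 ± 0.20 and 0.0972, and Tmem173, which encodes STING, with 0.89 ± 0.28 and 0.116. Transcripts of the interferon genes on this list, which are Ifng, Ifna4, Ifnk and Ifnb1, were scarce. Further interferon genes were not on it. Ifng, the type II interferon, had 91 reads over the single colored libraries and 21 over the double colored libraries, with a log2 fold change of 1.57 ± 0.78 and an edgeR adjusted p of 0.367. Ifna4 had 2 reads in single colored and 3 in double colored libraries, and was not tested. Ifnk had 6 reads in each group and was not tested either. Ifnb1 had 0 reads in both groups, which allows up to 0.0230 CPM in the single colored and 0.0322 CPM in the double colored group at 3 counts over a group, for counting error only.

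A further list held 60 interferon-induced genes outside the 42. Of the 54 tested, 6 were called higher and 0 lower by edgeR, 20 were called higher with the block, and 53 had a positive log2 fold change, with a median of 0.63, beside the same background shares. The genes of smallest p were Gbp8, with a log2 fold change of 1.91 ± 0.32 and an edgeR adjusted p of 0.00426, and Slfn8, with 1.30 ± 0.24 and 0.00897. Lgals3bp followed with 0.79 ± 0.17 and 0.0237, and Ifi47, an immunity-related GTPase, with 1.28 ± 0.28 and 0.0267. Leaving out one library never lost the calls of Gbp8 and Slfn8. Lgals3bp lost its call without the double colored library 2 or 4, with edgeR adjusted p-values up to 0.108. Ifi47 lost its call without the single colored library 1 or 3 or the double colored library 1 or 2, with edgeR adjusted p-values up to 0.106.

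The genes most like Zbp1 over the 8 libraries, by Pearson's r of log2 CPM, were Cblb (r = 0.986), Themis2 (0.977), Cd96 (0.977), Ccdc88b (0.976) and Icam1 (0.973). None of these is among the 42. The libraries are shared by all these genes and fall into the 2 color groups, so r is a description.

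Markers of several, but not all, other cell types differed in the same contrast as the interferon response genes. The 10 T and NK cell markers had a median log2 fold change of 2.75 and the 13 macrophage markers one of 0.73, beside 0.63 for the 42 genes. Among the macrophage markers 12 had a positive log2 fold change, while Mrc1 had −0.40. Of the 6 fibroblast markers, 1 was called higher, against 2.32% of all genes tested. They summed to 537 to 1455 CPM in single colored and 254 to 564 CPM in double colored libraries. The collagens made up most of that difference, with log2 fold changes of 1.76 for Col1a1, the gene called, 1.44 for Col1a2 and 1.01 for Col3a1, while Lum had 0.29, Pdgfra 0.09 and Dcn −0.10. The 5 dendritic cell markers summed to 1.95 to 6.73 CPM in single colored and 0.734 to 1.77 CPM in double colored libraries. The 1 tested, Itgax, was called higher, with a log2 fold change of 1.85. Flt3, Xcr1, Siglech and Cd209a had only 23 to 93 reads each over all libraries and were not tested. B cell and neutrophil markers summed to at most 4.36 CPM in any library, with the neutrophil marker Ly6g at 0 in all 8. The 6 endothelial markers summed to 116 to 147.5 CPM in single colored and 122.5 to 161 CPM in double colored libraries, with a median log2 fold change of −0.13. The 6 smooth muscle and pericyte markers summed to 227 to 318 CPM in single colored and 292 to 399 CPM in double colored libraries, with a median of 0.04. The 10 cardiomyocyte markers had a median log2 fold change of −0.45, and 0 were called by edgeR without the block. With the block, 2 were called lower, against 2.57% of all genes tested.

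The order of libraries was not the same for the markers and the interferon response genes. The single colored library 2 had 24.3 CPM of T and NK cell markers and 324.6 CPM of macrophage markers, above every double colored library. Its summed level of the 42 genes was below 2 double colored libraries. In every numbered pair, the single colored library had the higher sum of the 42 genes, T and NK cell markers, and macrophage markers. The part of these cell types in the interferon response levels was not tested.

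**Figure D5:**
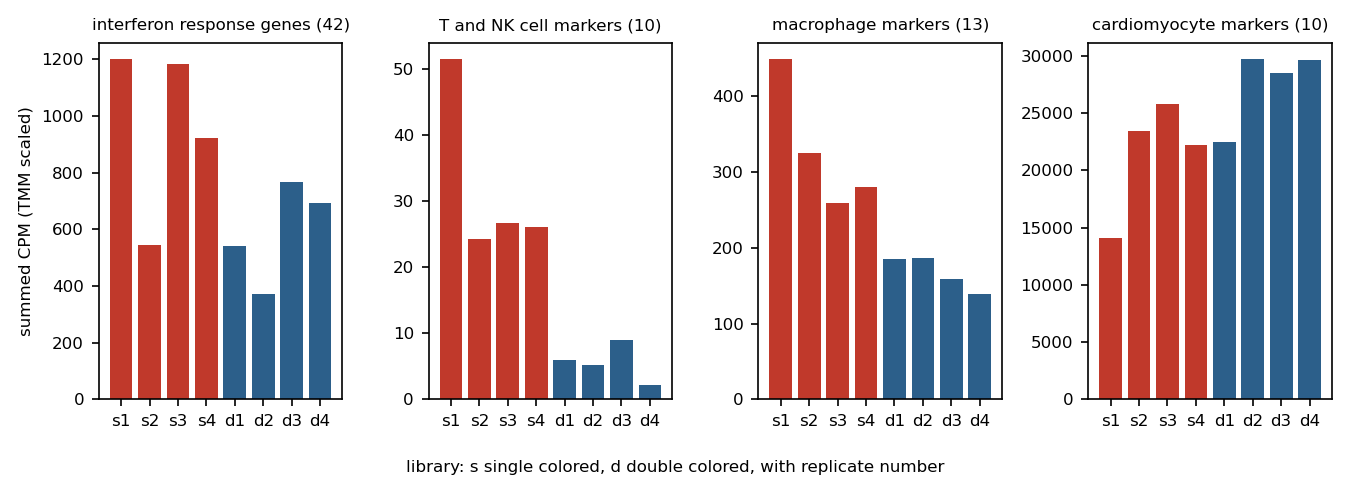
Summed TMM scaled CPM per library of the 42 interferon response genes and of T and NK cell, macrophage and cardiomyocyte markers, with single colored libraries (s1 to s4, red) left of double colored libraries (d1 to d4, blue). T and NK cell markers are at least 24.3 CPM in red and at most 8.98 CPM in blue bars, while the interferon response sums overlap. The bar s1 is the highest for the 42 genes, the T and NK cell markers and the macrophage markers.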

How the data were processed

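RNA was extracted with the miRNeasy Micro Kit and made into libraries with the Ovation RNA-seq System v2 Kit, per the labels' protocols. The submitters' processing notes name STAR 2.5.2b, featureCounts, Subread and the build mm9, and the column headers carry a mapping quality tag of 30. The deposited values used are, per the file headers, raw counts of aligned reads assigned to each gene. All deposited values were whole, so although they are handled as the estimated count type, no rounding was needed. The authors' 24 CPM and FPKM columns were not used.

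Counts of all genes were tested in R 4.3.3 with edgeR 4.0.16 (filterByExpr with a minimum count of 10, TMM, robust quasi-likelihood F-test, Benjamini-Hochberg over 12466 genes, threshold 0.05), on 4 single colored against 4 double colored libraries. Log2 CPM used a prior count of 2. SE is the log2 fold change divided by the root of F. Symbols came from an Ensembl table, which named 32919 of 37991 genes. The members and gene lists were chosen with earlier results of these data known. Named are all members, with values per library for the 12 of smallest p and 3 chosen after their values were seen, and up to 4 genes of smallest p of each other list; some genes these rules name are not reported here.

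Libraries with the same number were taken as pairs because their deviations from the group means correlated at 0.257, 0.126, 0.136 and 0.139, each over 0.1, where the highest value of any other combination was 0.108. Over the 42 members alone the same-numbered values were 0.261, 0.709, 0.467 and −0.131, and single colored 3 with double colored 4 gave 0.495, so pair 4 is not seen in the members. Their descriptions also share an id. Alternatives were DESeq2 1.42.0, its size factors in edgeR, library totals, no filter, no mitochondrial genes, the replicate block and leaving out libraries. Depth was 23820700 to 30082278 reads per library. The libraries carry amplified reads without molecular identifiers, so limits from counts cover counting error only.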

Additional observations from a re-analysis of the deposited data

Results flagged for a closer look

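Within a group of 4 libraries, a library was marked where its gap to the nearest other relative to the group's range exceeded Dixon's 95% critical value. Of 120 groups checked, 8 were marked, and chance marks about 1 in 20. Among the 42 genes, Stat2 had 21.3 CPM in the single colored library 2, against 31.6 to 32.1 in the other single colored libraries, and Usp18 had 1.395 CPM in the same library, against 3.69 to 4.11. Tlr3 had 12.8 CPM in the double colored library 3, against 8.31 to 8.70 in the other double colored libraries. Irf9 had 9.98 CPM in the double colored library 4, against 6.09 to 6.18. Of the other interferon-induced genes, Slfn8 had 12.8 CPM in the single colored library 1, against 6.66 to 7.10.

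The marker sums gave 3 more. T and NK cell markers summed to 51.4 CPM in the single colored library 1, against 24.3 to 26.7 in the other single colored libraries. Cardiomyocyte markers summed to 22470 CPM in the double colored library 1, against 28490 to 29670, and B cell markers to 0.544 CPM in the same library, against 0 to 0.0454.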

How the results depend on the processing

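The main counts were 309 genes called, 5 of the 42 members higher, 1 receptor and signaling gene, 6 other interferon-induced genes, 5 members with all single above all double colored libraries, and a member median of 0.63. In the same order, library totals alone gave 1378, 24, 13, 31 and 10, with a median of 1.16. DESeq2 gave 556, 11, 3 and 12 calls, no filter 805, 19, 5 and 19, and the replicate block 939, 23, 6 and 20. Of all genes, 2.32% were called higher in the main fit, 11% with library totals and 3.65% with DESeq2. The share was 2.71% with no filter, 4.97% with the block and 1.09% without both libraries numbered 1. Without both libraries numbered 1 the calls were 146, 1, 0 and 3, with 8 members not overlapping (9.23% of all genes; 15.9% with library totals). Leaving out one library gave 134 to 304 genes, with 1.03% to 2.16% of all genes called higher. It gave 1 to 12 members, 0 to 3 receptor and signaling genes and 2 to 10 other genes. It also gave 5 to 26 members not overlapping (6.16% to 7.96% of all genes) and a median of 0.49 to 0.83.

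DESeq2's size factors called 4 members and the table without mitochondrial genes 6, against 2.29% and 2.33% of all genes called higher. All 42 members stayed positive under every setting with all 8 libraries. Without both libraries numbered 1, Irf9 had −0.0018 and Ifi27l2a −0.032 on the log2 scale; Ifitm3 ran from −0.023, without the single colored library 1, to 0.23, without the single colored library 3. The cause was not tested. By reads over all libraries, depth limits Isg15, Oas1a, Oasl1, Dhx58 and Ifi27l2a most. Over the double colored libraries alone, Oas3 had 116 reads and Mx1 136, beside 115 for Oas1a and 129 for Oasl1.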
